A study of Mus musculus with 4 samples.

Results

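Notch signalling passes between cells that touch each other, and its main parts were read here from bulk RNA-seq of mouse calvarial bone. The 10 genes described are the receptors *Notch1*, *Notch2*, *Notch3* and *Notch4*, the ligands *Jag1*, *Jag2*, *Dll1* and *Dll4*, and the target genes *Hes1* and *Hey1*. They were chosen by name, all 10 were found, and they are 10 of the 23946 genes with a value. A Notch receptor is cut by the protease ADAM10 and then by gamma-secretase once a Jagged or Delta-like ligand on a neighbouring cell binds it. The freed intracellular part enters the nucleus, joins the DNA-binding protein RBPJ and Mastermind-like coactivators, and turns on *Hes* and *Hey* genes, which encode bHLH repressors. In the skeleton Notch signalling is known to hold back osteoblast precursors, in vessels it sets arterial fate and sprouting, and in the embryonic coronal suture *Jag1* has been placed downstream of the bHLH factor Twist1.

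The libraries came from 4 conditions of C57BL/6J mice aged 21 days after birth, namely wild-type frontal bone, wild-type parietal bone, *Twist1*+/- frontal bone and *Twist1*+/- parietal bone. *Twist1*+/- mice carry a germline loss of 1 allele in every cell, RNA came from 12 mice of each strain, and the study describes its parietal bone tissue as pericranium, bone plate and dura mater together. The sources used here do not say how many of these mice went into each library. There was 1 sample with 1 FPKM value per gene for each condition, termed a library, so differences lack any replicate check, no p-value is given, and every ratio describes these libraries only. The study's methods speak of replicates, and whether such a value combines several is not given in the sources used here. Levels are given in FPKM, that is, fragments scaled by transcript length and by a measure of the size of each library, so that genes may be compared with each other.

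Facts about the libraries touch every result that follows. *Twist1* itself was measured at 59.0 FPKM (wild-type) and 30.4 FPKM (*Twist1*+/-) in the frontal libraries, but at 52.5 FPKM (wild-type) and 50.7 FPKM (labelled *Twist1*+/-) in the parietal ones. Directions for the library labelled *Twist1*+/- parietal bone therefore rest on its label. Bone markers were present in each library, with *Runx2* between 25.3 and 37.5 FPKM and *Bglap* between 5220 and 7982 FPKM, although *Col1a1* and *Col1a2* were listed at 0 in every library except wild-type parietal bone. Genes of a single coding transcript gather at the FPKM value of 1 read, which puts the depth at roughly 37900000 reads for the deepest library (wild-type frontal) and 22900000 reads for the shallowest (labelled *Twist1*+/- parietal). These estimates lie below the sequencing depth that the methods give, for a reason that was not tested, and the read numbers derived from them are rough. The wild-type libraries stood apart in tissue makeup. The 10 brain and meninges markers summed to 115 FPKM in wild-type parietal bone against 695 to 2357 FPKM in the other libraries, and the 10 skeletal muscle markers to 121 FPKM in wild-type frontal bone against 1419 to 3639 FPKM in the others. In bulk tissue, fewer cells of a type and less RNA per cell cannot be told apart.

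Sequence before the start site is shown for *Dll1*, since it was the single gene of the 10 to pass 3-fold, and for the other genes of the set with an E-box there. An E-box, CANNTG on either strand, is the letters that bHLH factors such as Twist1 bind. The RefSeq promoter table (build GRCm38.p6, 250 bases before to 50 after each start) held 9 windows of 8 of the genes, 2 of them for *Dll1* with starts 1109 bases apart, and *Hes1* and *Hey1* had no entry. The 250 bases before the outer *Dll1* start, at chr17:15376933-15377182 on the reverse strand, held 3 E-boxes, given in capitals. For the inner *Dll1* start, *Jag1* and *Notch4*, a stretch of 30 bases holds the E-box.
Dll1 outer start: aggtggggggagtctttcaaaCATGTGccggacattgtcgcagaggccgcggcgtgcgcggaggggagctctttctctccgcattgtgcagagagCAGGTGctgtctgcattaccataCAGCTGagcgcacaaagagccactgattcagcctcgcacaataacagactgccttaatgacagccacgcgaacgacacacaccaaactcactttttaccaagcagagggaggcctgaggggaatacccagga
Dll1 inner start: tggggggctgctCATTTGcatctcattagt
Jag1: ccgcgtttcatgCAGCTGatctgaaaggga
Notch4: caggaactccccCATTTGgctgacccccca
The last 3 stretches lie at chr17:15376026-15376055 on the reverse strand, chr2:137116585-137116614 on the reverse strand and chr17:34564125-34564154 on the forward strand. E-boxes were thus found in 4 of the 9 windows, and 72.3% of all 32851 promoter windows hold one. The letters TGGGAA, the core of the motif that RBPJ binds, occurred on neither strand in any of the 9 windows and in 25.6% of all windows. The N-box CACNAG, bound by Hes repressors, occurred in windows of *Notch1*, *Notch2*, *Notch3*, *Dll1* and *Dll4*, or 5 of 9, against 42.5% of all windows, and none of these overlapped an E-box. These are matches of letters in these windows only.

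The targets were the most abundant of the 10 genes in every library, and the receptors mostly stood above the Delta-like ligands. *Hes1*, which encodes a repressor of neurogenic and myogenic bHLH factors, was at 21.0 FPKM in wild-type frontal, 33.2 FPKM in wild-type parietal, 25.4 FPKM in *Twist1*+/- frontal and 43.7 FPKM in the labelled *Twist1*+/- parietal bone. Both parietal libraries were therefore above both frontal libraries. *Hey1*, a repressor with known roles in vessels and osteoblasts, was at 19.6 and 21.6 FPKM in the wild-type frontal and parietal libraries and at 29.7 and 36.5 FPKM in those labelled *Twist1*+/-. Here both *Twist1*+/- libraries were above both wild-type libraries. *Hes1* ranked above *Hey1* in 3 of the 4 libraries, *Twist1*+/- frontal bone being the exception, and without replicates it cannot be said which neighbours in such an order differ.

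**Figure D1:**
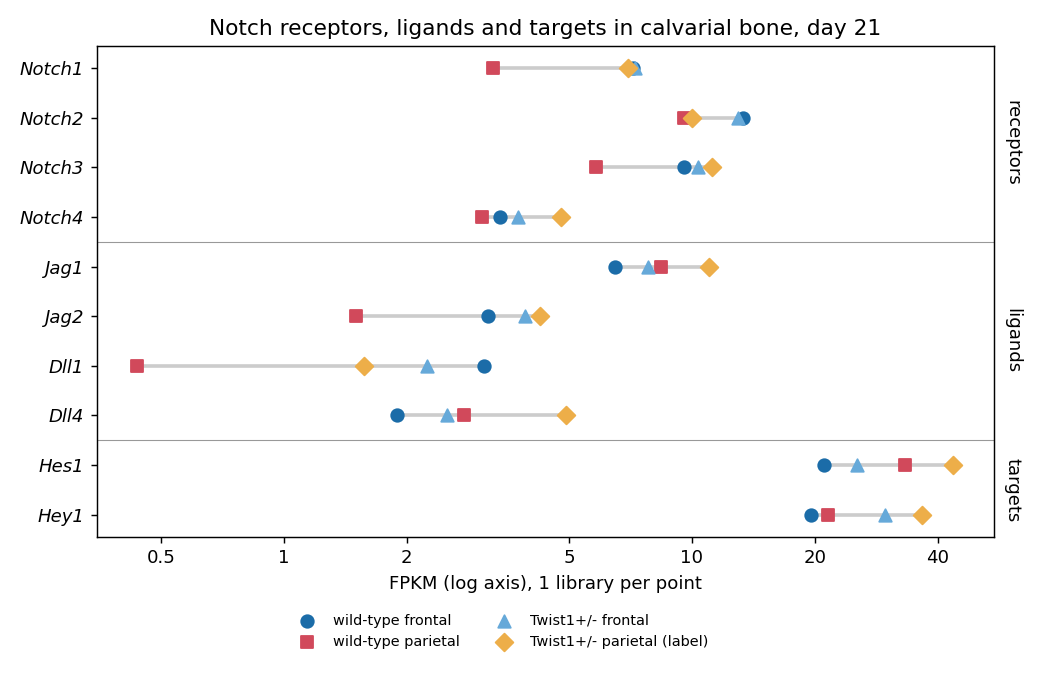
FPKM (log axis) of the 10 Notch genes in 4 libraries, 1 point per library and condition, grouped as receptors, ligands and targets, with a grey bar from the lowest to the highest library. Wild-type parietal bone is the lowest point for all 4 receptors and for *Jag2* and *Dll1*, and *Dll1* has the widest range, from 0.438 to 3.09 FPKM.

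*Notch2*, the receptor whose truncation causes the bone-loss disorder Hajdu-Cheney syndrome, was at 13.3 FPKM in wild-type frontal, 9.56 FPKM in wild-type parietal, 13.0 FPKM in *Twist1*+/- frontal and 9.98 FPKM in the labelled *Twist1*+/- parietal bone. It varied least of the 10 genes, by 1.40-fold from the lowest to the highest library. *Notch3*, a receptor of pericytes and vascular smooth muscle, was at 9.54, 5.81, 10.4 and 11.2 FPKM in the same order of libraries. *Notch1*, active in endothelium, T cell precursors and many progenitors, was at 7.17, 3.26, 7.25 and 6.99 FPKM, so that 3 libraries lay close together and wild-type parietal bone lay apart below them (log2 ratio of -1.14 to wild-type frontal bone). *Notch4*, found mainly in endothelium, was the lowest receptor at 3.39, 3.06, 3.75 and 4.77 FPKM. Summed over the 4 receptors the level was 33.5 FPKM in wild-type frontal, 21.7 FPKM in wild-type parietal, 34.3 FPKM in *Twist1*+/- frontal and 32.9 FPKM in the labelled *Twist1*+/- parietal bone. *Notch2* made up 44.1% of that sum in wild-type parietal bone and 30.3% in its labelled *Twist1*+/- counterpart, where *Notch3* had the largest share with 34.0%.

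Among the ligands, *Jag1*, mutated in Alagille syndrome and active in vessels and bone, was the highest in each library, at 6.47 FPKM in wild-type frontal, 8.41 FPKM in wild-type parietal, 7.81 FPKM in *Twist1*+/- frontal and 11.0 FPKM in the labelled *Twist1*+/- parietal bone. It held between 44.3% and 64.1% of the summed level of the 4 ligands. *Jag2*, the related Jagged ligand of limb and craniofacial epithelium, was at 3.16, 1.51, 3.90 and 4.24 FPKM, with wild-type parietal bone lowest. *Dll4*, a ligand of arterial and sprouting endothelium, was at 1.89, 2.77, 2.51 and 4.93 FPKM, and each parietal library exceeded the frontal library of its genotype. *Dll1*, a Delta-like ligand of somites, neural progenitors and the niche of marginal zone B cells, was at 3.09 FPKM in wild-type frontal, 0.438 FPKM in wild-type parietal, 2.24 FPKM in *Twist1*+/- frontal and 1.57 FPKM in the labelled *Twist1*+/- parietal bone. With the depth above these *Dll1* values stand for roughly 420 reads, 36 reads, 229 reads and 129 reads, while no other gene of the 10 rests on fewer than about 141 reads (*Jag2* in wild-type parietal bone). The share of *Dll1* in the summed ligand level ranged from 21.1% (wild-type frontal) to 3.34% (wild-type parietal).

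The first question of the design is what loss of 1 *Twist1* allele does in parietal bone. All 10 Notch genes were higher in the labelled *Twist1*+/- parietal bone than in wild-type parietal bone, with *Notch2* and *Notch4* just below 0 (log2 ratios of -0.14 and -0.06) after subtraction of the median of genes with like GC content. Of all 13914 genes at or above 1 FPKM in either library, 46.9% were higher. The median log2 ratio of the 10 genes was 0.79, against -0.06 for all genes tested. *Dll1* was 3.59-fold higher (log2 ratio 1.84) and was the single gene of the 10 past 3-fold, where 8.19% of all genes passed it in either direction. At these low levels the value depends on the scale, and with 1 FPKM added to both libraries the log2 ratio of *Dll1* was 0.84, short of 3-fold. Past 2-fold there were 3 of the 10, *Dll1*, *Jag2* (2.82-fold) and *Notch1* (2.14-fold), against 20.2% of all genes, so the count past 3-fold is close to that background and neither is read as particular to the set. *Notch3* was 1.93-fold, *Dll4* 1.78-fold, *Hey1* 1.69-fold, *Notch4* 1.56-fold, *Hes1* 1.32-fold, *Jag1* 1.31-fold and *Notch2* 1.04-fold higher.

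Base composition moved with these ratios in parietal bone. Across 12554 genes, which are not independent replicates, the log2 ratio was related to the GC content of the transcript with a Spearman rho of 0.546. For 20 groups of genes by GC content it ran from a median of -0.59 in the group of lowest GC content to 0.70 in the highest. Transcripts of the Notch genes ran from 48.8% GC (*Jag1*) to 61.3% GC (*Jag2*). *Notch4* and *Jag2* fell in the top group, so their log2 ratios of 0.64 and 1.49 became -0.06 and 0.79 when the group's median was subtracted. *Notch1* went from 1.10 to 0.65 and *Notch3* from 0.95 to 0.37. For the genes whose GC group had a negative median the subtraction raised the values, from 0.76 to 0.92 for *Hey1*, from 0.40 to 0.56 for *Hes1* and from 0.39 to 0.71 for *Jag1*. *Dll1* went from 1.84 to 1.60, a 3.04-fold difference that lies just past 3-fold. After subtraction, which centres each group of genes on 0, 8 of the 10 genes were higher and their median log2 ratio was 0.60.

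**Figure D2:**
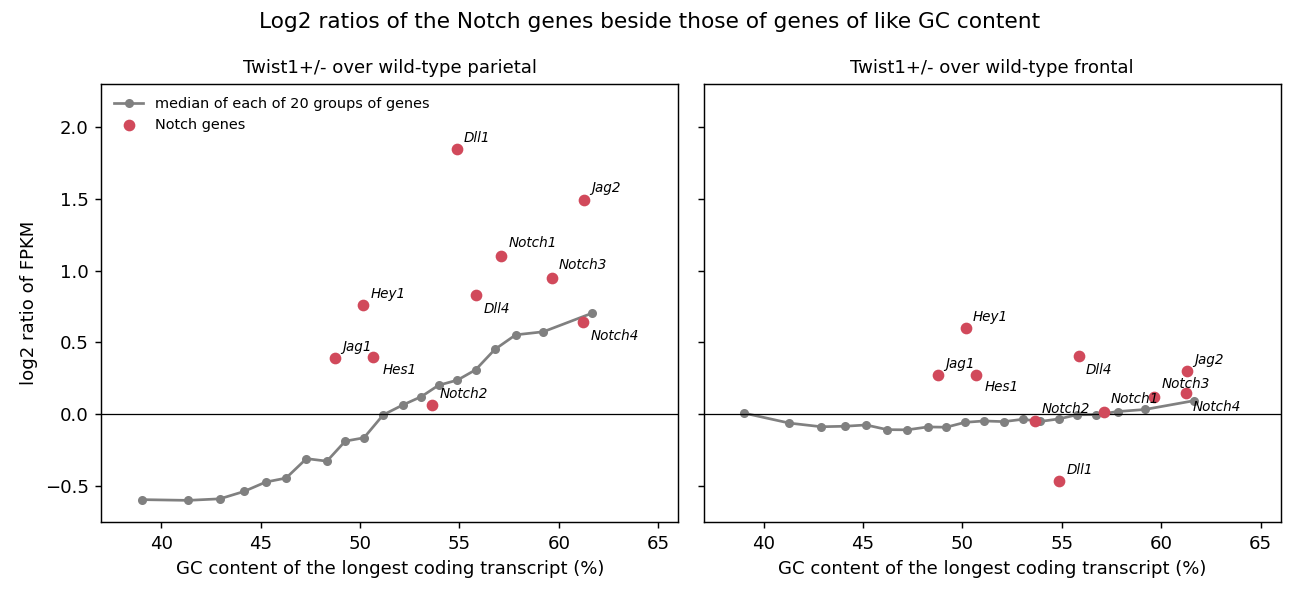
Log2 ratio of FPKM against the GC content (%) of the longest coding transcript, for *Twist1*+/- over wild-type parietal bone (left) and frontal bone (right), with 10 Notch genes in red and the medians of 20 groups of genes in grey. In parietal bone the grey line climbs from -0.59 to 0.70 and 8 Notch genes lie above it, and in frontal bone it stays near 0 (Spearman rho 0.110).

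In frontal bone, where the *Twist1* level itself differed between the genotypes, none of the 10 Notch genes passed 3-fold or 2-fold, where 3.89% and 7.18% of 14341 genes did. *Hey1* was 1.52-fold higher (log2 ratio 0.60), *Dll4* 1.33-fold, *Jag2* 1.23-fold, and *Hes1* and *Jag1* each 1.21-fold higher. *Notch4* and *Notch3* were 1.11-fold and 1.09-fold higher, and the log2 ratios of *Notch1* and *Notch2* were 0.01 and -0.04, both of which change sign with the scaling. *Dll1* was 1.38-fold lower. In sum 8 of the 10 were higher, against 44.6% of all genes, with a median log2 ratio of 0.21 beside -0.04 for all genes tested. Of the 10, *Hey1* thus had the largest ratio in frontal bone, and its log2 ratio there after GC subtraction was 0.66. Markers of other tissues also differed between the frontal libraries. All 10 skeletal muscle markers were more than 3-fold higher in the *Twist1*+/- library (median log2 ratio 3.47), and 8 of the 10 brain and meninges markers were lower, 3 of them by more than 3-fold. The 10 epithelial markers summed to 13.7 FPKM in wild-type frontal, 6.25 FPKM in wild-type parietal, 53.1 FPKM in *Twist1*+/- frontal and 47.6 FPKM in the labelled *Twist1*+/- parietal bone, with none of the markers at 0. Both *Twist1*+/- libraries were above both wild-type libraries in this list, as in *Hey1*, and the part of these tissues in the frontal ratios and in the *Hey1* values was not tested.

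**Figure D3:**
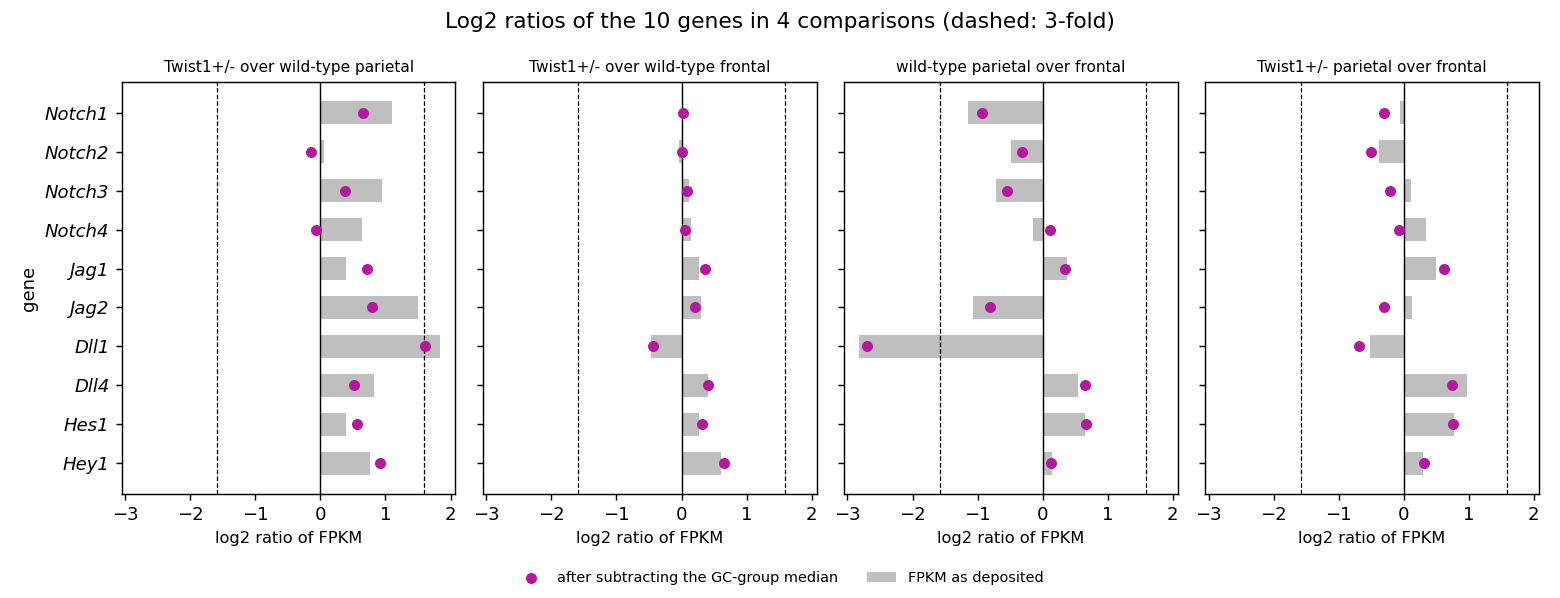
Log2 ratios of FPKM of the 10 Notch genes in 4 comparisons, as deposited (grey bars) and after subtraction of the median of genes of similar GC content (purple points), with dashed lines at 3-fold. *Dll1* crosses a dashed line in the comparisons that contain wild-type parietal bone, with 1.84 and -2.82, and no gene does in the other comparisons.

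The second question is how bones of neural crest origin (frontal) and of mesodermal origin (parietal) differ. In wild-type mice *Dll1* was 7.05-fold lower in parietal than in frontal bone (log2 ratio -2.82), and 13.3% of 14214 genes passed 3-fold. *Notch1* (log2 ratio -1.14) and *Jag2* (-1.07) were also lower by more than 2-fold, which makes 3 of the 10 against 26.9% of all genes. *Notch3* was 1.64-fold, *Notch2* 1.40-fold and *Notch4* 1.11-fold lower, and *Notch4* turned to 0.11 on the log2 scale after GC subtraction. Higher in parietal bone were *Hes1* (1.58-fold), *Dll4* (1.46-fold), *Jag1* (1.30-fold) and *Hey1* (1.10-fold), the last 2 of which fell below 0 when the libraries were scaled to the same *Gapdh* value. This made 4 of 10 genes higher, against 49.5% of all genes, with a median log2 ratio of -0.31 beside -0.01 for all genes tested. With 1 FPKM added the log2 ratio of *Dll1* was -1.51, again short of 3-fold. Since this comparison and the parietal genotype comparison share the wild-type parietal library, a low value there appears in both.

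In *Twist1*+/- mice no Notch gene differed between the bones by 2-fold with the FPKM as deposited, where 4.09% of 14305 genes passed 3-fold and 11.9% passed 2-fold. *Dll4* came nearest at 1.96-fold higher in the labelled parietal bone, and just past 2-fold (log2 ratio 1.02) with *Gapdh* scaling, followed by *Hes1* (1.72-fold), *Jag1* (1.41-fold), *Notch4* (1.27-fold) and *Hey1* (1.23-fold). *Jag2* and *Notch3* were within 1.09-fold, and *Notch4*, *Jag2* and *Notch3* turned below 0 after GC subtraction. *Dll1* was 1.42-fold, *Notch2* 1.30-fold and *Notch1* 1.04-fold lower. Of the 10 genes 7 were higher, against 47.5% of all genes, and their median log2 ratio was 0.21 beside -0.03 for all genes tested. Base composition moved with this comparison too (Spearman rho 0.416 across 12979 genes). After GC subtraction 4 of the 10 were higher, with each group of genes again centred on 0. *Hes1*, *Dll4*, *Jag1* and *Hey1* were therefore higher in parietal bone, and *Dll1*, *Notch1* and *Notch2* lower, in both genotypes with the FPKM as deposited. Without the wild-type parietal library, the labelled *Twist1*+/- parietal bone had 0.509 times the *Dll1* level of wild-type frontal bone, 0.974 times its *Notch1* level and 1.34 times its *Jag2* level.

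Cells other than bone cells express several of these genes, and their markers moved with some of the values. The low *Dll1* level of wild-type parietal bone lay beside the low sums of its brain and meninges markers, given above, and B cell markers. Sums of T cell, epithelial and endothelial markers were lowest in that library too. Between the *Twist1*+/- bones the brain and meninges sum (695 FPKM frontal, 771 FPKM labelled parietal) ran opposite to *Dll1*. It was not tested what part any of these cells had in the *Dll1* level. The 8 B cell markers summed to 226 FPKM in wild-type frontal, 117 FPKM in wild-type parietal, 211 FPKM in *Twist1*+/- frontal and 179 FPKM in the labelled *Twist1*+/- parietal bone, with none at 0. Between the wild-type bones 6 of these 8 were lower in parietal bone, while *Vpreb1* (11.5 FPKM frontal, 21.7 FPKM parietal) and *Igll1* (22.9 FPKM frontal, 44.0 FPKM parietal) were higher. None of the 10 brain and meninges markers was at 0 in any library, and 9 of 10 were more than 3-fold lower in wild-type parietal than in wild-type frontal bone. In the parietal genotype comparison 6 of those 10 were more than 3-fold higher in the labelled *Twist1*+/- library. The 8 T cell markers summed to between 7.01 FPKM (wild-type parietal) and 13.8 FPKM (*Twist1*+/- frontal), with *Trat1* at 0 in both parietal libraries.

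Vascular markers bear on *Notch1*, *Notch4* and *Dll4* and, for mural cells, on *Notch3*. The 12 endothelial markers, led by *Eng* and *Pecam1*, summed to 213 FPKM in wild-type frontal, 196 FPKM in wild-type parietal, 222 FPKM in *Twist1*+/- frontal and 254 FPKM in the labelled *Twist1*+/- parietal bone, and none was at 0. Of these 12, 1 was more than 3-fold lower in wild-type parietal than in wild-type frontal bone. Their median log2 ratio for the parietal genotype comparison was 0.66, with 9 of 12 higher, and for the wild-type bones -0.52, with 9 of 12 lower. *Dll4* differed from most of this list in the wild-type bones, where its log2 ratio was 0.55. The markers higher there too were *Erg* (0.99), *Emcn* (0.59) and *Pecam1* (0.43). The 10 markers of mural cells and smooth muscle, led by *Rgs5* and *Acta2*, summed to 143, 373, 219 and 221 FPKM in the order wild-type frontal, wild-type parietal, *Twist1*+/- frontal and labelled *Twist1*+/- parietal. That sum was carried by its leading genes, *Rgs5* being at 122 FPKM and *Acta2* at 101 FPKM in wild-type parietal bone. Over the list the median log2 ratio was 0.22 for the parietal genotype comparison, with 6 of 10 higher, and 0.88 for the wild-type bones, with 7 of 10 higher. *Notch3* differed from this median in the wild-type bones, where its log2 ratio was -0.72. The part of vessel cells in these values was not tested.

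**Figure D4:**
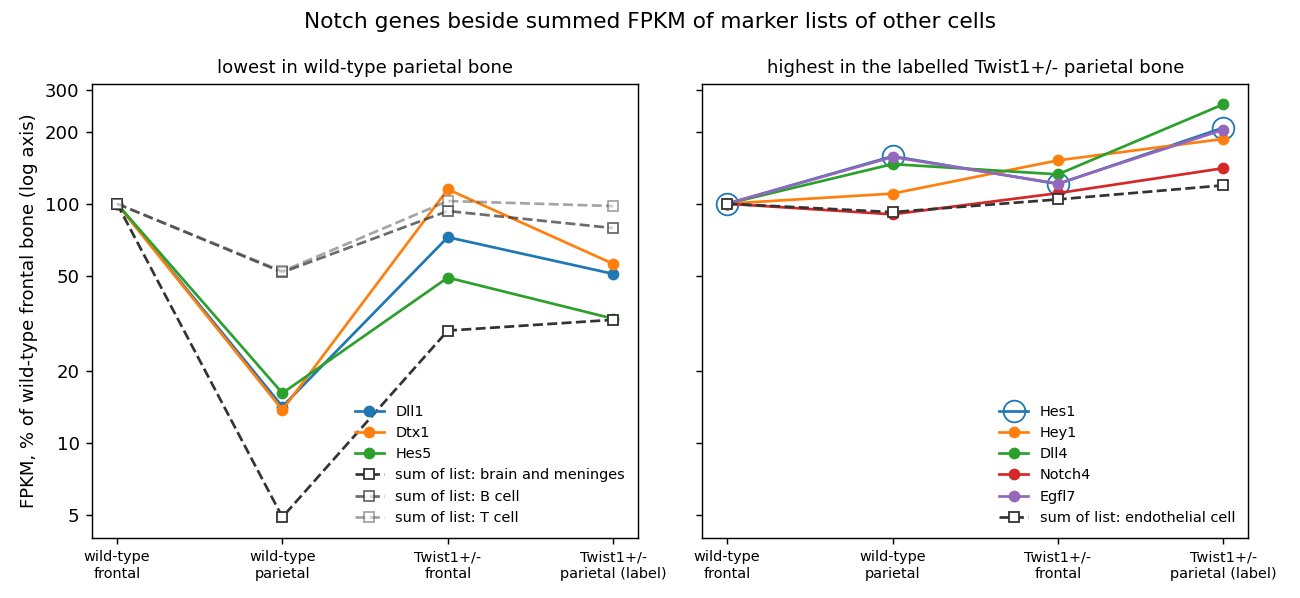
FPKM as a percentage of the value in wild-type frontal bone (log axis) for Notch genes (coloured circles) and for the summed FPKM of marker lists (dashed lines, squares), with lines that only join the 4 libraries of each gene. On the left *Dll1*, *Dtx1* and *Hes5* are lowest in wild-type parietal bone, as are the brain, B cell and T cell lists, and on the right *Hes1* and *Egfl7* overlie each other and peak in the labelled *Twist1*+/- parietal bone.

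Bone cell markers were read in the same way. Of the 10 osteoblast markers, led by *Spp1* and *Bglap*, 8 were above 0 in all libraries, and their median log2 ratio was 0.62 for the parietal genotype comparison and 0.01 for parietal over frontal wild-type bone. The 8 osteocyte markers, led by *Dmp1* and *Mepe*, summed to 305 FPKM in wild-type frontal, 668 FPKM in wild-type parietal, 379 FPKM in *Twist1*+/- frontal and 630 FPKM in the labelled *Twist1*+/- parietal bone. Both parietal libraries thus exceeded both frontal libraries in this sum, as they did in *Hes1*, with 1 library each. *Sost* and *Phex* of this list did not follow that order. *Sost* was lowest in wild-type parietal bone (18.3 FPKM) and *Phex* in the labelled *Twist1*+/- parietal bone (30.3 FPKM).

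The rest of the pathway was read from 50 further genes grouped by role, of which 43 to 45 reached 1 FPKM in each library. For the parietal genotype comparison 3 of the 45 tested passed 3-fold (6.67%, against 8.19% of all genes). The median log2 ratio of the 45 was 0.30, against -0.06 for all genes tested. By role the medians ran from -0.12 (proteases) to 0.66 (other *Hes* and *Hey* genes). After GC subtraction they ran from -0.14 (enzymes that add sugars to the receptor) to 0.21 (nuclear complex). *Dtx1*, which encodes a Deltex ubiquitin ligase and is itself a Notch target in lymphocytes, was at 4.11 FPKM in wild-type frontal, 0.565 FPKM in wild-type parietal, 4.73 FPKM in *Twist1*+/- frontal and 2.31 FPKM in the labelled *Twist1*+/- parietal bone. Its log2 ratios were 2.03 for the parietal genotype comparison and -2.86 for wild-type parietal over frontal bone, and like *Dll1* it was lowest in wild-type parietal bone. *Dlk1*, an imprinted Delta-like protein without the domain that activates Notch, did the opposite, with 7.51 FPKM in wild-type parietal bone against less than 2 FPKM in each of the other libraries. *Mib1*, the ubiquitin ligase that lets ligand-bearing cells pull on the receptor, was at 2.81 FPKM in the labelled *Twist1*+/- parietal bone against 8.07 to 9.79 FPKM elsewhere, a log2 ratio of -1.80 to wild-type parietal bone.

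Between the wild-type bones the genes past 3-fold were *Dlk1* (log2 ratio 3.06), *Dtx1* and *Hes5* (-2.63), again 3 of 45, against 13.3% of all genes. *Hes5*, a Notch target of neural progenitors, was at 4.70 FPKM in wild-type frontal, 0.759 FPKM in wild-type parietal, 2.31 FPKM in *Twist1*+/- frontal and 1.55 FPKM in the labelled *Twist1*+/- parietal bone. This order of libraries is that of *Dll1*. None of the 45 passed 3-fold in frontal bone between the genotypes (3.89% of all genes), or between the bones of *Twist1*+/- mice (4.09%). None of these shares is read as particular to the pathway. Of the other *Hes* and *Hey* genes, *Hes6* was the highest and its 4 values ran from 19.0 to 27.6 FPKM, while *Hey2* and *Heyl* were lower in wild-type parietal than in wild-type frontal bone by 0.75 and 0.91 on the log2 scale.

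Of the 10 proteases and protease subunits that cut the receptor none passed 3-fold in any of the 4 comparisons, and their median log2 ratio lay between -0.12 and 0.17. *Adam10*, the sheddase named above, was the highest of them at 49.8 FPKM in wild-type frontal, 39.7 FPKM in wild-type parietal, 47.3 FPKM in *Twist1*+/- frontal and 36.1 FPKM in the labelled *Twist1*+/- parietal bone. The widest difference in this group was that of *Aph1b*, a gamma-secretase subunit, whose log2 ratio was -1.51 for the parietal genotype comparison. No gene of the nuclear complex or of the sugar-adding enzymes passed 3-fold either, counts of 0 in small groups beside the shares of 3.89% to 13.3% of all genes. *Snw1*, a cofactor of RBPJ, led the first group, and *Rbpj* itself ran from 6.36 FPKM (wild-type frontal) to 10.2 FPKM (wild-type parietal). *Lfng*, a Fringe enzyme whose sugar shifts receptors towards Delta-like ligands, led the second, from 20.4 FPKM (*Twist1*+/- frontal) to 30.1 FPKM (labelled *Twist1*+/- parietal). Among genes of endocytosis and turnover *Dtx3* was the highest and differed little, between 21.4 and 24.5 FPKM.

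**Figure D5:**
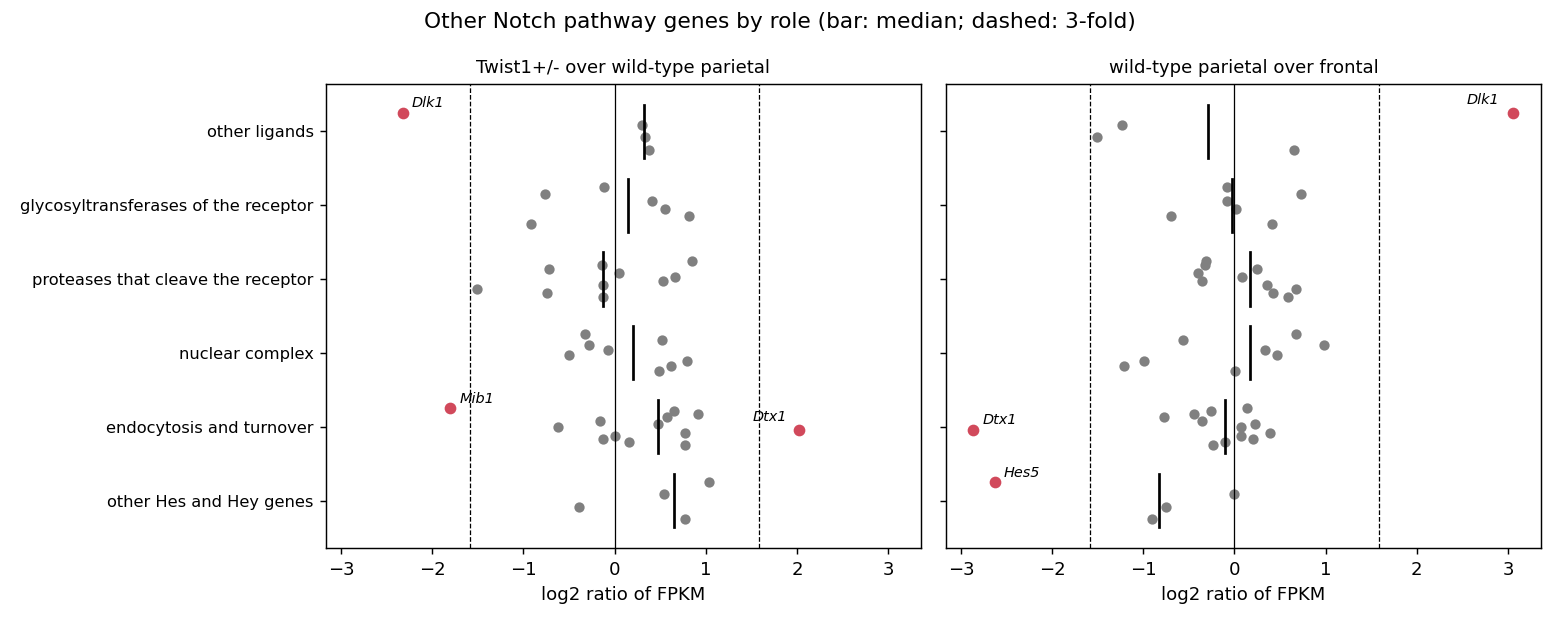
Log2 ratios of FPKM of the other Notch pathway genes at or above 1 FPKM in either library, by role, for *Twist1*+/- over wild-type parietal bone (left) and wild-type parietal over frontal bone (right), with 1 point per gene, black bars at the medians and dashed lines at 3-fold. Red points mark the genes past 3-fold, *Dlk1*, *Mib1* and *Dtx1* on the left and *Dlk1*, *Dtx1* and *Hes5* on the right.

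For the receptor, the ligand and the target with the widest range, the most similar genes were looked for among 12291 genes at or above 1 FPKM in all 4 libraries, by the distance between log2 values centred on their mean over those 4 points. Near to *Hes1* were *Egfl7* (distance 0.03) and *Nr2f1* (0.04). *Egfl7*, which encodes a protein secreted by endothelium that binds Notch receptors and is in the list of other ligands, was at 31.3, 49.1, 38.0 and 63.8 FPKM in wild-type frontal, wild-type parietal, *Twist1*+/- frontal and labelled *Twist1*+/- parietal bone. Nearest to *Notch1* were *Gfod2* (0.04), *Wbp2* (0.04) and *Ly6e* (0.05). Nearest to *Dll1* were *Vtn* (0.18), *Prrt1* (0.22) and *Cmpk2* (0.22), and *Vtn*, which encodes vitronectin, had 35.6 FPKM (wild-type frontal) and 5.54 FPKM (wild-type parietal). These distances over 4 points are a description.

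The genes lie at separate places in the mouse genome (mm9, GENCODE release M1, another build than that of the promoter windows). *Dll1* is on chromosome 17 from 15504318 to 15513836 on the reverse strand with 11 exons, and *Notch3* (32257765 to 32303825, reverse) and *Notch4* (34701213 to 34725448, forward) are on the same chromosome. Chromosome 2 holds *Notch1* (26313423 to 26372183, reverse), *Dll4* (119151520 to 119161698, forward) and *Jag1* (136907192 to 136942380, reverse). *Notch2* (97817461 to 97954290, forward) and *Hey1* (8663362 to 8667039, reverse) are on chromosome 3, *Jag2* on chromosome 12 (114146801 to 114167706, reverse) and *Hes1* on chromosome 16 (30064470 to 30067882, forward). None of the 75-base windows of their longest coding transcripts occurred in a coding transcript of another gene. Exons of *Notch1*, *Notch3*, *Dll1* and *Dll4* overlap long noncoding RNA genes on the opposite strand, by up to 964, 333, 445 and 214 bases. The libraries were stranded, but whether strand was used in counting is not given in the sources used here, so reads of such partners may not have been told apart.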

How the data were processed

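Poly(A) RNA was sequenced as stranded single-end libraries. The authors aligned reads to mm9 with STAR 2.4.2a and deposited gene-level FPKM from Cuffdiff (Cufflinks 2.2.1), 1 value per gene and library, with annotation from iGenomes. The Cuffdiff scaling option is not given in the sources used here. The 10 genes and all lists were chosen with earlier results of these data known. A gene passed where its ratio was beyond 3-fold and the larger FPKM was at least 1, and genes listed at 0 in the other library were counted too. A second threshold of 2-fold was read beside it. Each comparison sets 1 library against 1, so no test was run. An additive fit of bone and genotype over the 4 libraries would leave 1 residual degree of freedom and was not run.

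GC content and length came from the longest coding transcript in GENCODE M1, found for all 10 genes and for 80.8% of all genes. Genes were put into 20 groups by GC content and the median log2 ratio of a gene's group was subtracted as an alternative. Genes without a GC value were left as they were. Depth was estimated from coding genes with a single transcript, as the lowest peak of FPKM times transcript length, and is approximate, so no interval is given. Genes named are the 10, *Twist1*, pathway genes past 3-fold in any comparison, the highest gene of each pathway list, the 2 highest of each marker list described, markers listed at 0, and the 3 genes most like the receptor, ligand and target of widest range, of which 1 is not reported here. *Runx2*, *Ptgds*, *Aph1b*, *Rbpj*, *Hey2*, *Heyl*, *Vpreb1*, *Igll1*, *Sost*, *Phex*, *Erg* and *Emcn* were added after their values were seen. Procedures were tested on simulated data. Python 3.11.15, numpy 2.4.6, pandas 2.3.3 and scipy 1.17.1 were used.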

Additional observations from a re-analysis of the deposited data

Results flagged for a closer look

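For *Dll1* and *Notch2* the ratio of *Twist1*+/- to wild-type went in opposite directions in the bones. *Dll1* had a log2 ratio of 1.84 in parietal bone and of -0.46 in frontal bone, and *Notch2* one of 0.062 in parietal bone and of -0.043 in frontal bone. With 1 library per condition this difference was not tested. The values of *Notch2* are close to 0 in both bones, and the frontal one changed sign when the libraries were scaled to the same median ratio and after GC subtraction, as did the parietal one after GC subtraction. The other 8 genes had the same direction in both bones with the FPKM as deposited.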

How the results depend on the processing

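With a pseudocount of 1 FPKM or a floor of 10 FPKM, 0 of the 10 Notch genes passed 3-fold in the comparisons where 1 did (*Twist1*+/- over wild-type parietal bone, and wild-type parietal over frontal bone), because *Dll1* is below 4 FPKM in every library. With a 2-fold threshold 3 passed in each of these, and scaling to the same *Gapdh* value gave 2 in the parietal genotype comparison, where *Jag2* reached a log2 ratio of 1.88. For *Twist1*+/- frontal over wild-type frontal bone and for *Twist1*+/- parietal over frontal bone the count stayed at 0 under all 9 alternatives. Over all genes, in the order parietal genotype, frontal genotype, wild-type bones and *Twist1*+/- bones, the counts past 3-fold were 1139, 558, 1887 and 585. They became 458, 233, 916 and 142 with a pseudocount of 1 FPKM, 3675, 3032, 4525 and 3093 without a floor, 323, 159, 625 and 125 with a floor of 10 FPKM, and 2815, 1030, 3821 and 1702 at 2-fold. The other alternatives kept each count within 1.5 times. GC values were found for 78.5% of the genes past 3-fold in the frontal genotype comparison and 78.8% in the *Twist1*+/- bones. They were found for 83.1% in the parietal genotype comparison and 86.3% in the wild-type bones. The rest were left as they were, so GC subtraction is no full check of any of these counts over all genes. The 10 Notch genes all had a GC value. Of the 40 log2 ratios of the 10 genes, none past 3-fold changed sign, while among the rest 7 changed sign after GC subtraction, 3 with *Gapdh* scaling and 1 with median scaling. *Dll1* in wild-type parietal bone, at roughly 36 reads, is the value that depth limits most.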
